A study of Mus musculus with 60 samples.

Results

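These data describe the messenger RNA of Kupffer cells, macrophages that live in the sinusoids of the liver, from wild-type mice that had received corn oil and no toxin. They come from 5 of the 15 mice of the study and were chosen by the group named in the labels. Every one of the 5 mice was a C57BL/6J animal aged 8 weeks, wild type at Trem1, given a single dose of corn oil, the vehicle of the study, and killed 12 h later. The other 10 mice received the hepatotoxin CCl4 and were not analysed here beyond 1 check of sex-linked genes. Livers were perfused with collagenase, hepatocytes were removed by slow spins, and the remaining cells were spread over a HISTOPAQUE-1083 gradient. Cells that bound CD11b beads were removed and cells that bound F4/80 beads were kept. Libraries were of the 3' tag kind (QuantSeq, from Lexogen), where reads start near the end of a transcript, so counts were not divided by transcript length. Each mouse was sequenced in 4 lanes that the deposited table joins in 1 column, and the mouse was the replicate. Levels are given as CPM, the counts of a gene per 1000000 counts of its library, in mice 1 to 5 in that order, and errors are SD over the 5 mice.

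Kupffer cells line the blood side of the liver and take up bacteria, complement-coated particles and aged erythrocytes from portal blood. Their survival depends on the receptor of colony-stimulating factor 1, and their identity on transcription factors that include PU.1, the LXR-alpha receptor and ID3. They are a main source of complement C1q and of the soluble scavenger protein encoded by Cd5l, and they return haem iron to the circulation after breaking down haemoglobin. Macrophages can switch on immediate-early and inflammatory genes within the time that isolation takes, so a level measured here is that of cells after isolation.

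Counts assigned to genes ranged from 892498 to 1922569 per library. A gene with 0 counts could still stand at up to 3 counts, or 1.56 to 3.36 CPM, and such limits cover counting error only. The library of mouse 2 stood apart from the other 4. Over the 7560 genes whose mean reached 10 CPM, its Spearman rank correlation with the others was 0.51 to 0.541, against 0.765 to 0.869 among the others. It was also the shallowest, and had counts in 8264 genes, where the other libraries would be expected to show 10035 to 11345 at its depth. The median gene of 100 CPM or more stood in mouse 2 at -0.189 on the log2 scale from the mean of the others by library totals (pseudocount 1), at 0.0356 by TMM scaling, at 0.168 by DESeq2 size factors and at -0.0347 with the ribosomal precursor Rn45s left out of the totals. A place of mouse 2 that changed between these scalings is named as such. Results are given with and without this library. The libraries also went against their label of male: Xist, the RNA of the inactive X chromosome, was present at 72 to 755 counts in each, and the genes Uty, Kdm5d, Eif2s3y and Ddx3y of the Y chromosome had 0 in all 5. Ddx3y had counts in 9 of the other 10 libraries of the table, so its row can take reads. Xist had counts in all 10 of those, so its presence alone does not set the 5 oil libraries apart.

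The 5 genes that mark Kupffer cells were abundant in every library. Cd5l, which encodes a secreted scavenger protein of tissue macrophages, stood at 18694, 9762, 23518, 23088 and 22621 CPM. C1qa, the A chain of the complement recognition molecule C1q, stood at 23831, 11569.8, 24428, 16896 and 28994 CPM. Clec4f, a lectin receptor found in rodents on Kupffer cells, stood at 2600.5, 1073, 2604, 2175 and 3121 CPM. All 3 were lowest in mouse 2, and the other 4 mice lay well above it. Vsig4, a receptor for complement C3 fragments, had 1941, 1051, 1926, 1929.7 and 2541 CPM, and Timd4, a receptor for phosphatidylserine on dying cells, had 397, 158, 534, 454 and 380.2 CPM. Both had the same low value in mouse 2. The summed level of the 5 markers was 47463, 23615, 53011, 44543 and 57658 CPM. Its coefficient of variation (CV, the SD over the mean) was 0.29 over 5 mice and 0.115 without mouse 2. C1qa and Cd5l made up most of this sum, with means of 21144 and 19537 CPM against 45258 CPM for all 5 markers. In RNA from a pool of cells, fewer cells of a type and less RNA per cell cannot be told apart.

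These markers lie in different parts of the genome (GRCm38, the assembly of mm10). The protein-coding genes C1qa (chr4:136895917-136898803, minus strand), C1qc (chr4:136889804-136893065, minus strand) and C1qb (chr4:136880129-136886187, minus strand) follow each other in a cluster. Cd5l lies at chr3:87357881-87371073 on the plus strand, Clec4f at chr6:83644542-83656187 on the minus strand, Vsig4 at chrX:96247203-96293438 on the minus strand and Timd4 at chr11:46810800-46844332 on the plus strand. The 250 bases just upstream of the RefSeq start (GRCm38.p6) are shown for Cd5l, C1qb, Vsig4 and Timd4, as marker and C1q genes on 4 chromosomes. They are chr3:87357631-87357880, chr4:136886201-136886450, chrX:96293439-96293688 and chr11:46810549-46810798, each read on the gene's strand. Capitals mark the letters GAGGAA, a form of the site bound by PU.1, or TTCCTC where these letters are on the other strand. Other forms of the site were not searched, so a stretch without capitals may still hold one.
Cd5l: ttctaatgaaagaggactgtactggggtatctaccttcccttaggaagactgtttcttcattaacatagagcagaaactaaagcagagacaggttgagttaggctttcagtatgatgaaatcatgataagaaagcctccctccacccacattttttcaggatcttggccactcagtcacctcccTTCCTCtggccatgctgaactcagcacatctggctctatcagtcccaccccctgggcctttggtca
C1qb: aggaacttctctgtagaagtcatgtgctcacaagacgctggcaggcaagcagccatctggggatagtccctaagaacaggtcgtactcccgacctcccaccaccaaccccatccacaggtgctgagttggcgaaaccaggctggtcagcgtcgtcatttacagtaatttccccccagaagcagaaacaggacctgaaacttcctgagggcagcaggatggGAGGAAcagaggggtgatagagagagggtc
Vsig4: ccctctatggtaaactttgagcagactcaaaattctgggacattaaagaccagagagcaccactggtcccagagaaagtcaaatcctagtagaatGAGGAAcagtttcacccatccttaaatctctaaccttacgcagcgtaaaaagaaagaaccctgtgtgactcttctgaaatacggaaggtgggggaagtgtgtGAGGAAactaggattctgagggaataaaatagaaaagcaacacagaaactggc
Timd4: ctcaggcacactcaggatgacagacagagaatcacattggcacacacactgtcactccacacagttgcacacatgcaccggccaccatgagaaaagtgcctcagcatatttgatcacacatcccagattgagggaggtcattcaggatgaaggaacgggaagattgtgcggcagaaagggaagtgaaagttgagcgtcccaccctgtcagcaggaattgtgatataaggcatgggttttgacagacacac
The Cd5l and C1qb stretches held 1 copy each, the Vsig4 stretch held 2 and the Timd4 stretch held 0. The windows of Clec4f and C1qc, not printed because they overlap the GENCODE bodies of these genes, held 0 and 1. On either strand, the 6 letters were found in 23.1% of 27025 RefSeq promoter windows of 250 bases, so a match is common and describes the letters alone. The letters TATAAA were found in 0 of these 4 stretches, or of the Clec4f and C1qc windows, and in 12.97% of all windows.

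**Figure D1:**
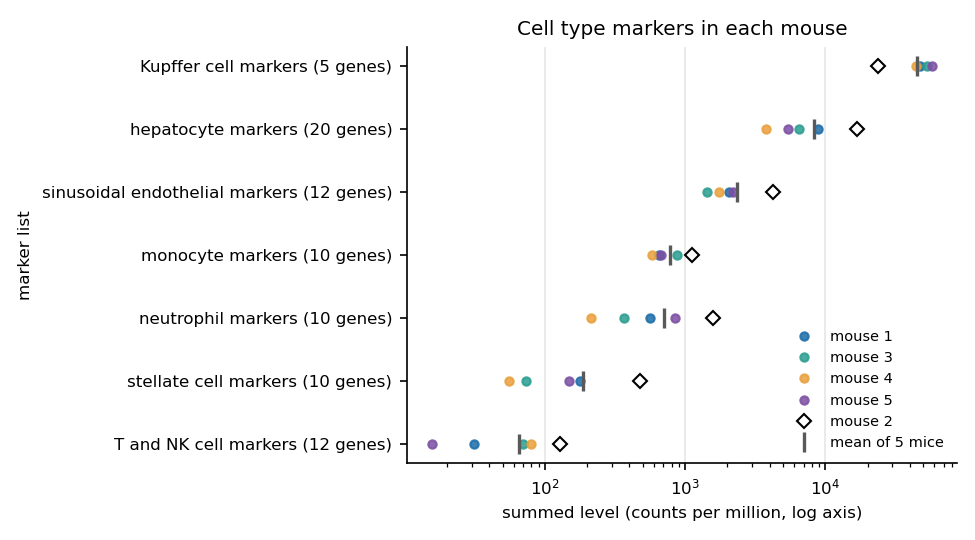
Summed CPM (log axis) of the marker genes of 7 liver cell types in each of the 5 oil-treated mice; points are mice, the open diamond is mouse 2 and the bar is the mean. Kupffer cell markers reached 23615 to 57658 CPM, the highest of the 7 in each mouse. Most of that sum came from C1qa and Cd5l, so its height is largely theirs. Mouse 2 had the lowest Kupffer sum with the highest hepatocyte, endothelial, neutrophil, monocyte and stellate sums.

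Markers of other liver cells were measured beside them. The 20 hepatocyte markers summed to 8824, 16926, 6468, 3774 and 5399.6 CPM, and 16 of 20 had a mean of 100 CPM or more, against 7.16% of the table. Albumin (Alb) alone had 1808, 3852, 1428, 736 and 979 CPM and transferrin (Trf), which macrophages can also express, had 2849.6, 4514, 2429, 1566 and 2042 CPM. Mouse 2 had the highest sum and mouse 4 the lowest. The 12 markers of sinusoidal endothelium summed to 2061, 4203, 1436, 1736 and 2197 CPM, led by Egfl7, a secreted vessel protein, at 531 ± 267 CPM, and Stab2, an endothelial hyaluronan receptor, had 267 ± 113 CPM. Neutrophil markers summed to 561, 1569.8, 368, 211 and 847 CPM over the 10 of 11 that the table holds, with the calcium-binding alarmin gene S100a8 at 263, 613, 115, 78.2 and 395 CPM. Monocyte markers summed to 577 to 1125 CPM, and 3 of the 10 had a mean of 100 CPM or more, against 7.16% of the table. These were Plac8 (255 ± 40.1 CPM), Fn1 (245 ± 108 CPM) and S100a4 (140 ± 59.5 CPM). The monocyte marker Ly6c2 was lower, at 4.82 to 51.5 CPM, as was the chemokine receptor gene Ccr2 at 8.76 to 84.0 CPM. Stellate cell markers summed to 55.0 to 479.6 CPM, and 3 of the 10 had a mean of 10 CPM or more, against 31.0% of the table. Lrat, whose product stores retinol as esters, was not among the 3, at 1.95, 4.48, 18.9, 4.82 and 8.32 CPM. The high stellate sum in mouse 2 therefore came from other members. Mouse 2 was the highest library for each of these 5 sums. Lymphoid cells were near the limit of detection: T and NK cell markers summed to 15.6 to 129 CPM with the T cell receptor gene Cd3e at 0 counts, and B cell markers to 20.3 to 150.1 CPM with Cd79a and Pax5 at 0 counts. Cholangiocyte markers summed to at most 10.7 CPM, with the keratin gene Krt7 at 0 counts. Dendritic cell markers summed to 40.7 to 80.1 CPM. Of the 11 erythroid and platelet genes, 7 had 0 counts, as did 10396 of the table's 24411 genes. The globin genes Hba-a1 and Hbb-bs were among the 7. Of the 50-base windows at the ends of their transcripts (GENCODE M21), 82.0% and 67.9% also occur in transcripts of other genes, so the 0 counts say little. Alas2, the haem synthesis enzyme of erythroid cells, had 36.0, 206, 29.0, 24.1 and 15.1 CPM, highest in mouse 2.

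Counts were concentrated in few genes. Of 24411 genes in the table, 14015 had a count in at least 1 mouse and 6773 in all 5. A mean of 10 CPM or more was reached by 7560 genes, 100 CPM by 1748 (7.16% of the table), 1000 CPM by 106 and 10000 CPM by 5. The 10 highest genes of a library took 16.3 to 25.4% of its counts, the 100 highest 35.4 to 40.9% and the 1000 highest 67.2 to 70.2%. The most abundant 232 to 336 genes held 50% of the counts. Protein-coding genes took 85.9 ± 5.15% of counts and long non-coding RNAs 2.15 ± 0.316%, by RefSeq's gene types.

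The highest row in every mouse was Rn45s, the precursor of ribosomal RNA, at 99719.7, 187888, 95741, 140077 and 47812 CPM. It took 4.78 to 18.8% of a library, lowest in mouse 5 and highest in mouse 2, and its range shifts the CPM of all other genes in the opposite direction. C1qa (21144 ± 6880.2 CPM) and Cd5l (19537 ± 5793 CPM) followed. C1qa was above Cd5l in 4 of 5 mice, with mouse 4 the exception, and together they held 4.07 ± 1.17% of counts. Malat1, a nuclear long non-coding RNA, was the fourth in all 5 mice with 14922, 9644, 16437, 16783 and 13477 CPM. Actb, which encodes cytoplasmic actin, had 12848, 8067, 14249.7, 11936 and 12759 CPM, and Apoe, the apolipoprotein that macrophages use to export lipid, had 11528, 8594, 8905, 8335 and 11476 CPM. Actb and Apoe exchanged places in mouse 2 alone. Of 30 pairs made of each of the 30 highest genes and the one ranked next, 4 kept their order in all 5 mice. The upper genes of these 4 pairs were Rn45s, Cd5l, Malat1 and Apoe, all among the 6 genes above. Below those 6 genes the order was not stable. Yet 29 of the 30 highest genes stayed within the first 100 of each mouse. The exception was Aqp1, a water channel, at 2578, 5879, 1096, 1391 and 2543 CPM, with rank 7 in mouse 2 and rank 101 in mouse 3.

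**Figure D2:**
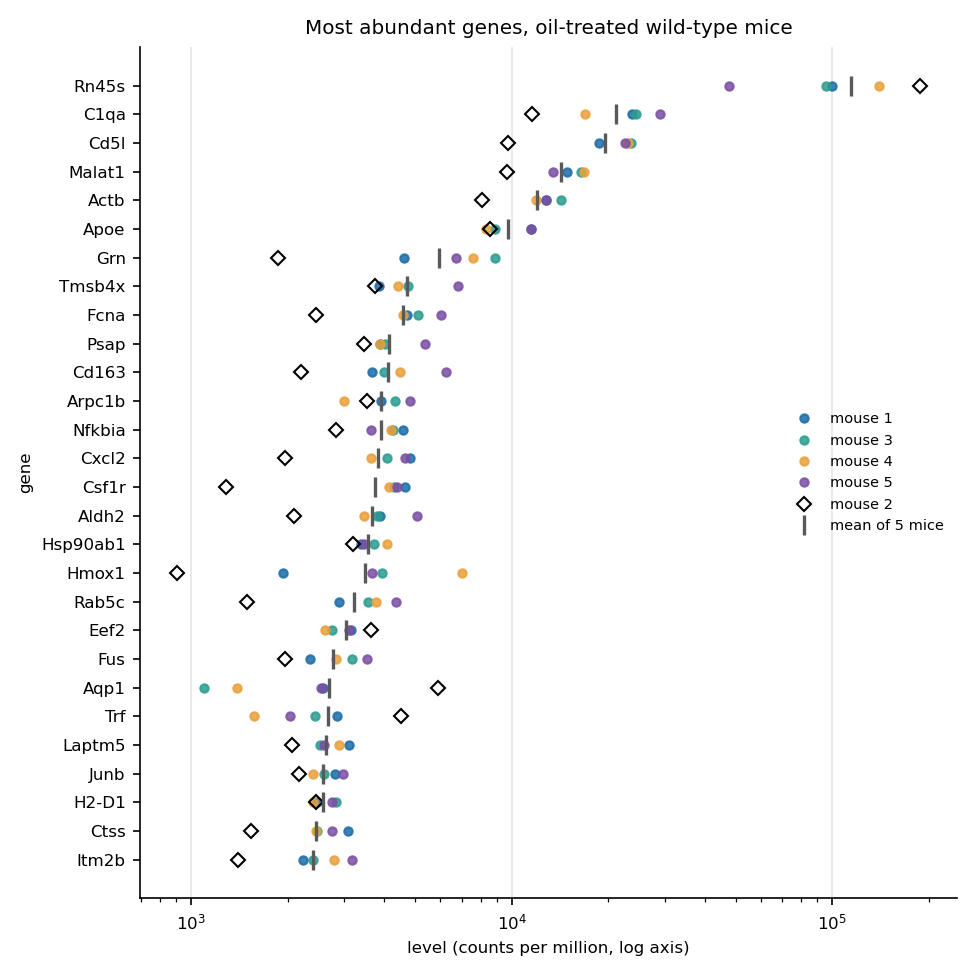
Level in CPM (log axis) of 28 of the 30 genes with the highest mean over the 5 oil-treated mice, in order of the mean; points are mice, the open diamond is mouse 2 and the bar is the mean. Rn45s spans 47812 to 187888 CPM, and the mean falls from 21144 CPM for C1qa to 2400.4 CPM for Itm2b.

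The rest of the 30 highest genes fell into a few functions. Lysosomal proteins were given by Grn (progranulin, 5930.4 ± 2759 CPM), Psap (the precursor of the saposins that help break down sphingolipids, 4131 ± 722 CPM), Laptm5 (2639 ± 398 CPM) and Ctss (cathepsin S, 2462 ± 578 CPM). Secreted and surface molecules of macrophages were Fcna (ficolin A, 4576 ± 1311 CPM), Cd163 (the receptor for haemoglobin bound to haptoglobin, 4119.8 ± 1459 CPM) and Csf1r (the receptor for colony-stimulating factor 1, 3757 ± 1394 CPM). Actin regulators were Tmsb4x (4719 ± 1234 CPM), which binds actin monomers, and Arpc1b (3921 ± 700.2 CPM), a subunit of the Arp2/3 complex. Stress-responsive and early genes were Nfkbia (the inhibitor of NF-kB, 3908 ± 687 CPM), Cxcl2 (a neutrophil chemokine, 3836 ± 1149 CPM), Junb (2588 ± 317 CPM) and Hmox1 (haem oxygenase, 3497 ± 2337 CPM). Hsp90ab1, Eef2 and H2-D1 stood between 2583 and 3572 CPM. They encode a chaperone, an elongation factor and a class I histocompatibility molecule. Leaving out mouse 2, 28 of the 30 were still among the 30 highest.

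Kupffer surface and secreted genes, a list of 17 that shares Cd5l, Clec4f, Vsig4 and Timd4 with the markers, summed to 37213, 19239, 43356, 42327 and 46431 CPM. Of the 17, 14 had a mean of 100 CPM or more, against 7.16% of the table. All 17 were lowest in mouse 2 by library totals, as were 762 of the 1748 genes of 100 CPM or more. The sum was lowest there under all 4 scalings, at 0.454 to 0.583 times the mean of the other mice. Marco, a scavenger receptor for bacteria, had 1190.3, 617, 1612, 1395 and 1278 CPM, and Folr2, a folate receptor of resident macrophages, had 796, 280.1, 1014, 892 and 1103 CPM. Adgre1, which encodes the F4/80 antigen used to collect the cells, had 427, 128, 350.0, 412 and 339.6 CPM. Axl, a receptor tyrosine kinase for dying cells, was the steadiest of the list at 699.8, 548, 643, 679 and 705 CPM, a CV of 0.0986. The median CV of the list was 0.348, and 0.146 without mouse 2. For all 3164 genes whose mean reached 50 CPM it was 0.369, and 0.251 without mouse 2.

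Among 18 lineage transcription factors, 14 had a mean of 100 CPM or more, against 7.16% of the table. Id3, an inhibitor of DNA binding required for Kupffer cells, led with 1732, 1022, 2001, 2397 and 2434 CPM, and Klf4 followed with 1706, 947, 1688, 1859 and 1686 CPM. Nr1h3, which encodes LXR-alpha, had 638, 854, 901, 695 and 798 CPM. In mouse 2 it lay inside the range of the others by library totals and above it by the other 3 scalings, whereas Id3 and Klf4 were lowest there under all 4. Irf8 (453 ± 98.6 CPM), Spi1, which encodes PU.1 (305 ± 106 CPM), and Spic, a PU.1-related factor of iron-recycling macrophages (187 ± 30.3 CPM), were all detected in every mouse. The list's median CV was 0.302, or 0.188 without mouse 2.

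Complement genes were led by C1qa far above the other chains of the same molecule. C1qb had 1189, 962, 1393, 1285 and 1497 CPM and C1qc had 1963, 1379, 1786, 1409 and 2075 CPM, although the protein contains the A, B and C chains in equal number. The C1qa to C1qb ratio of CPM was 20.04, 12.0, 17.5, 13.1 and 19.4 in mice 1 to 5. C1qb to C1qc stayed at 0.606, 0.698, 0.78, 0.912 and 0.722. These are counts of reads near annotated 3' ends, so a ratio between genes is one of counts and not of molecules. Other members were Cfp (properdin, 948 ± 203 CPM), Cfb (292 ± 46.1 CPM) and C4b (192 ± 53.7 CPM). C3, the central complement protein that hepatocytes make in quantity, had 709, 2030.3, 519, 274 and 313 CPM, and mouse 2, the library with the highest hepatocyte marker sum, was the highest; the part of hepatocytes was not tested. The list's summed CPM was 32062, 18676, 32530.5, 24253 and 37825.

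Antigen presentation genes had a median CV of 0.3 for class I and 0.266 for class II, among members of 50 CPM or more. Without mouse 2 these were 0.247 and 0.259. Of the 14 class I genes, H2-D1 had 2477, 2445, 2841, 2397 and 2758 CPM, B2m, the shared light chain, had 1846, 1813, 2176, 1841 and 2388 CPM, and H2-K1 had 1957, 2024, 1806, 1623 and 1699.8 CPM. Their values lay within a narrow range in all 5 mice, with a CV of 0.0779, 0.128 and 0.0925, and the place of mouse 2 changed with the scaling for H2-D1 and B2m. The transporter and loading genes of the same list varied more: Tapbp had 412, 82.9, 370.3, 320.3 and 216 CPM and Tap1 had 102, 30.3, 168, 108 and 113 CPM, both lowest in mouse 2. Class II genes H2-Aa, H2-Ab1 and H2-Eb1 had 1689 ± 375, 1369 ± 336 and 1720.2 ± 492 CPM, and were highest in mice 1 and 3. Cd74, the invariant chain, had 1558, 499, 1984, 1409 and 1297 CPM. The H2-Aa to H2-Eb1 ratio stayed at 0.896, 1.09, 0.965, 1.06 and 0.968. H2-DMa, which helps load class II molecules, had 278, 4.48, 328, 145 and 267 CPM, and mouse 2 was at 0.0176 times the mean of the other mice.

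**Figure D3:**
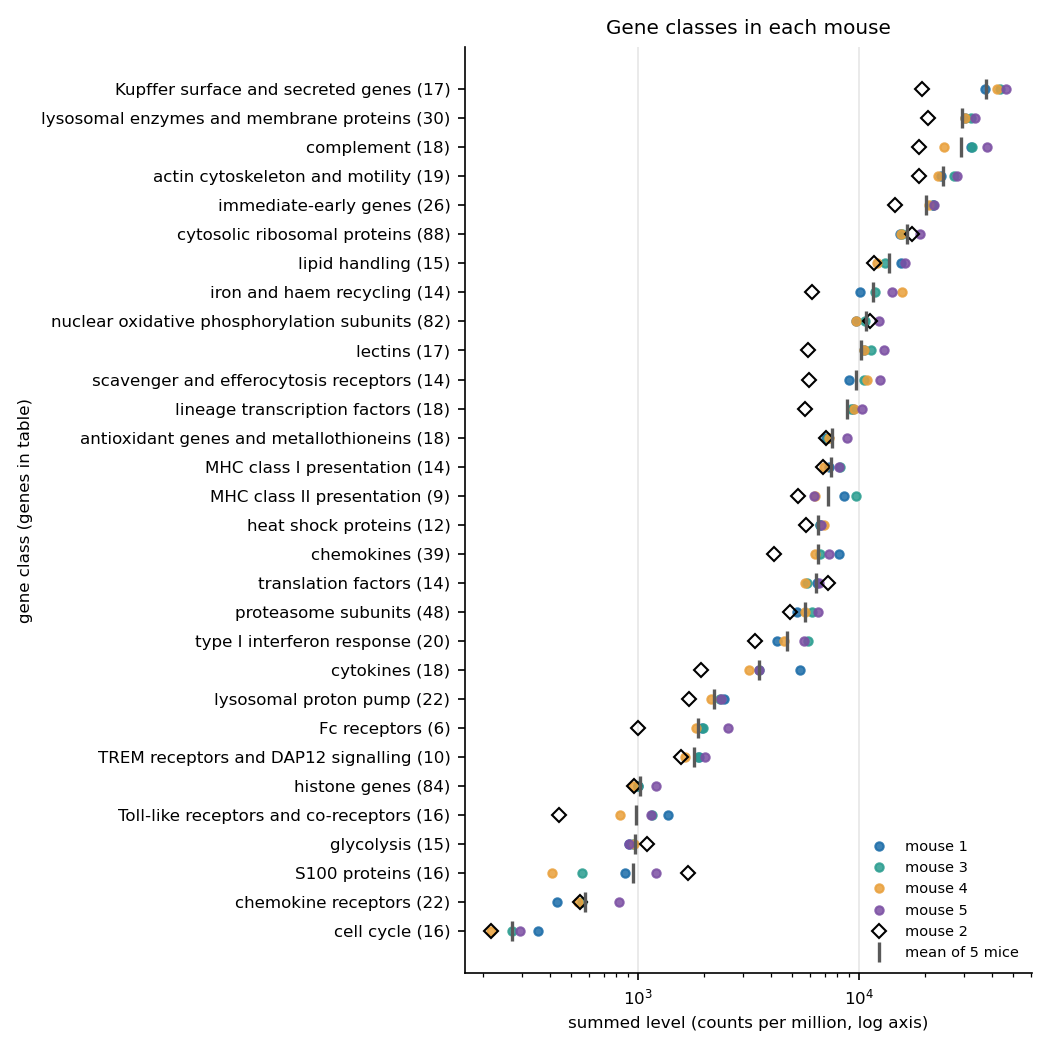
Summed CPM (log axis) of 30 gene classes in each of the 5 oil-treated mice, in order of the mean; points are mice, the open diamond is mouse 2 and the bar is the mean. The Kupffer surface, lysosomal and complement sums are the highest, 29069 CPM for complement. Mouse 2 is the lowest point for the Kupffer surface, complement, iron and lysosomal classes under all 4 scalings, and the highest for translation factors.

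Lysosomal genes were abundant as a class. All 30 had a mean of 10 CPM or more, 24 of 100 and 9 of 1000 CPM, against 7.16% of the table at 100 CPM. Their sum was 30246, 20449, 32011, 30258 and 33579 CPM, with a CV of 0.175, or 0.0508 without mouse 2. The proteases cathepsin D (Ctsd, 2138 ± 388 CPM) and cathepsin B (Ctsb, 2095 ± 511 CPM) were followed by Npc2 (1554 ± 277 CPM), which binds cholesterol, and the membrane protein gene Lamp1 (1450.2 ± 189 CPM). Lipa, the acid lipase, was the steadiest of the list at 328, 305, 276, 270.2 and 279.8 CPM. Ctsl, another cathepsin, had 157, 506, 153, 231 and 254 CPM and was the most variable member of 50 CPM or more, with mouse 2 the highest. Of the 22 genes of the proton pump that acidifies lysosomes, 6 had a mean of 100 CPM or more, led by Atp6v1f at 538 ± 105 CPM.

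Iron and haem recycling genes summed to 10166, 6132, 11839.9, 15650 and 14151 CPM. Hmox1, which breaks haem open, was the most variable of the abundant genes of this list, at 1938, 906, 3954, 7027 and 3659 CPM, highest in mouse 4 and lowest in mouse 2. Its CV was 0.668, and 0.511 without mouse 2. Cd163 had 3671, 2195, 4013, 4487 and 6233 CPM, with mouse 5 the highest. Fth1, the ferritin heavy chain, had 1679.8, 1122, 1562, 1610.3 and 1688 CPM, and Slc40a1, the iron exporter ferroportin, had 801, 509.8, 702, 884 and 871 CPM. Without mouse 2, the CV was 0.0365 for Fth1 and 0.102 for Slc40a1, and 0.0412 for Slc11a1, an iron and manganese transporter of phagosomes, at 176, 70.6, 178, 189 and 191 CPM. Blvrb, which reduces biliverdin, went the other way, at 146, 294, 242, 181 and 215 CPM with mouse 2 the highest.

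Receptors for particles were next. The 14 scavenger and efferocytosis receptors summed to 8981, 5957, 10522, 10840.2 and 12488 CPM. Msr1, scavenger receptor A, was among the 10 genes with the smallest CV of all genes of 100 CPM or more, at 589.8, 561, 625, 576 and 637 CPM, a CV of 0.0537. Lrp1, an endocytic receptor, had 1380.0, 872, 1834, 1731 and 1895 CPM and Mrc1, the mannose receptor, had 756, 465, 885, 1146 and 909 CPM. Mertk, a receptor for dying cells often used to define macrophages, had 16.5, 0, 34.1, 25.1 and 9.88 CPM. Stab1, a scavenger receptor, had 9.73, 0, 26.1, 25.1 and 20.8 CPM. Both were below 50 CPM in all 5 mice and had 0 counts in mouse 2. Fc receptor genes were led by Fcgr3 (713 ± 326 CPM), Fcer1g, their shared signalling chain (453 ± 43.2 CPM), and Fcgr4 (379.8 ± 123 CPM). Fcer1g was the steadiest of them, with a CV of 0.0954.

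Sensing receptors had a lower sum than the 2 classes of particle receptors above. Their mean sum was 986 CPM, against 9758 CPM for scavenger and efferocytosis receptors and 1863 CPM for Fc receptors. Of 16 Toll-like receptors and co-receptors, 2 had a mean of 100 CPM or more, against 7.16% of the table. A mean of 10 CPM or more was reached by 11, against 31.0%. The 2 were Cd14, the lipopolysaccharide co-receptor, at 555, 169, 394, 324 and 364 CPM, and Tlr12 at 409.7, 103, 464, 277 and 433 CPM. Tlr4, the lipopolysaccharide receptor, had 23.4, 7.84, 46.5, 2.89 and 39.0 CPM, and Tlr5 and Tlr9 had 0 counts in all 5 mice, which allows up to 3.36 CPM in the shallowest library. Trem1, the receptor that the study removes in another group, had 34.1, 97.5, 34.9, 46.3 and 52.0 CPM, with mouse 2 the highest and a CV of 0.492, or 0.211 without it. Neutrophil markers were also highest in mouse 2, and their part in the Trem1 level was not tested. Tyrobp, the adaptor of Trem1, had 1208, 1059, 998, 959 and 1273 CPM. Treml4, a related receptor, had 181, 58.3, 319, 275 and 269 CPM, and Trem2 had 50.6, 37.0, 9.44, 7.72 and 39.0 CPM.

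Inflammatory and immediate-early genes were present without any toxin. Il1b, the precursor of interleukin 1 beta, had 3376, 894, 1911, 1821 and 1882 CPM, highest in mouse 1, and Cxcl2 had 4832, 1957, 4093, 3650.1 and 4647 CPM, also highest in mouse 1. Tnf had 176, 6.72, 41.4, 38.6 and 41.6 CPM and Il10 220.0, 15.7, 171, 113 and 158 CPM, and mouse 1 was again highest for both. Il6 had 87.6, 128, 53.0, 66.6 and 52.0 CPM, highest in mouse 2. Of 39 chemokine genes, 8 had a mean of 100 CPM or more, against 7.16% of the table. Another 15 had 0 counts, as did 10396 of the table's 24411 genes. After Cxcl2 came Ccl6 (1273 ± 336 CPM), Ccl4 (706, 109, 169, 121 and 210.1 CPM) and Cxcl1 (235 ± 111 CPM). Of 26 immediate-early genes, 21 had a mean of 100 CPM or more, against 7.16% of the table, and 8 of 1000 CPM. Their sum was 21613, 14570.3, 21672, 20824 and 21859.8 CPM. Its CV was 0.155, and 0.0213 in the 4 mice without mouse 2. Jun had 2289, 2468, 1990.1, 2111 and 2378 CPM and Fos 993, 830.3, 1089.8, 1250.5 and 1344 CPM, both subunits of the transcription factor AP-1. Egr1 had 1472, 816, 1621, 1325 and 1489 CPM, and Dusp1, a phosphatase that switches off stress kinases, had 1073, 661, 1276, 1228 and 1424 CPM. Zfp36, which destabilises cytokine messages, had the largest CV among the members of 1000 CPM or more, 0.493, at 1111, 615, 2734, 2008 and 2140.4 CPM. The 12 heat shock genes had a sum with a CV of 0.0702 and a median CV of 0.255 among members of 50 CPM or more. Hspa5, the chaperone of the endoplasmic reticulum, had 2265, 1931, 2193, 2101 and 2278 CPM, while the inducible Hspa1a had 146, 114, 56.6, 61.8 and 139 CPM.

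Interferon-responsive genes were headed by Bst2, which tethers budding viruses, at 727, 929, 2021, 1596 and 1788 CPM, and Ifitm3, which blocks viral entry, at 1192, 513, 1489.9, 1215 and 1567 CPM. Both were lower in mouse 2 than in mice 3, 4 and 5. Of 20 such genes, 9 had a mean of 100 CPM or more, against 7.16% of the table, with Isg15 at 168, 130.0, 199.7, 191 and 186 CPM. Among lipid genes, Apoc1 had 1748, 1371, 1696, 1381 and 1962 CPM and Lpl, a lipase, 709, 632, 756, 532 and 719 CPM. The antioxidant gene Gpx1 had 2117, 1187, 2197, 2127 and 2864 CPM, and the metallothionein gene Mt1 had 307, 369.7, 344, 268 and 290.2 CPM. Of the 16 cell cycle genes, 0 had a mean of 100 CPM or more, against 7.16% of the table, and 7 had 10 CPM or more, against 31.0%. The proliferation marker Mki67 had 28.2, 98.6, 16.7, 25.1 and 34.8 CPM.

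Genes of the basic machinery had steady sums. The 88 cytosolic ribosomal protein genes summed to 15333, 17376, 15609.6, 15509 and 18988 CPM, a CV of 0.0958. The 82 nuclear subunits of oxidative phosphorylation summed to 9727, 11222, 10628, 9726 and 12355 CPM, a CV of 0.103, and the 48 proteasome genes to 5224, 4871, 6164, 5698 and 6556 CPM, a CV of 0.12. By library totals mouse 2 lay inside the range of the other mice for the ribosomal and respiratory sums and below it for the proteasome, and by DESeq2 size factors it was the highest for all 3. Their single members varied more, with a median CV of 0.243, 0.332 and 0.306 among members of 50 CPM or more. Rps14 (1811 ± 402 CPM) and Rps20 (1408 ± 424 CPM) led the ribosomal list, while its median member had 20.8 CPM and 2 members had 0 counts. Reads that fit several places were not counted to genes, so the sums leave them out. Of the 50-base windows at the ends of Rps14 and Rps20 transcripts (GENCODE M21), 20.6% and 36.0% also occur in transcripts of other genes. A low count in this list therefore does not show a low level, and the part of shared sequence was not tested. No gene of the table carries a mitochondrial name, so the mitochondrial genome was not measured.

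Stability was then measured gene by gene. The counts of each gene in the 5 mice were set against 1 common share of the library totals with a chi-square test, adjusted by Benjamini-Hochberg over 8209 genes with 50 or more counts in all. Of these, 8007 (97.5%) differed between mice by more than counting error, and 7020 (85.7%) did so without mouse 2. With nearly every gene past it, the test says little about single genes, and the size of the spread is more informative. Among the 1748 genes of 100 CPM or more, the median CV was 0.304, and 640 (36.6%) had a CV under 0.25. Without mouse 2 the median CV was 0.212 and 1099 (62.9%) were under 0.25. The CV fell with the level, from a median of 0.767 at 10 to 30 CPM to 0.236 at 1000 to 3000 CPM, and was 0.287 in the 21 genes above. Taking out counting error moved the median at 10 to 30 CPM to 0.735. edgeR's common biological coefficient of variation was 0.803, and 0.493 without mouse 2.

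**Figure D4:**
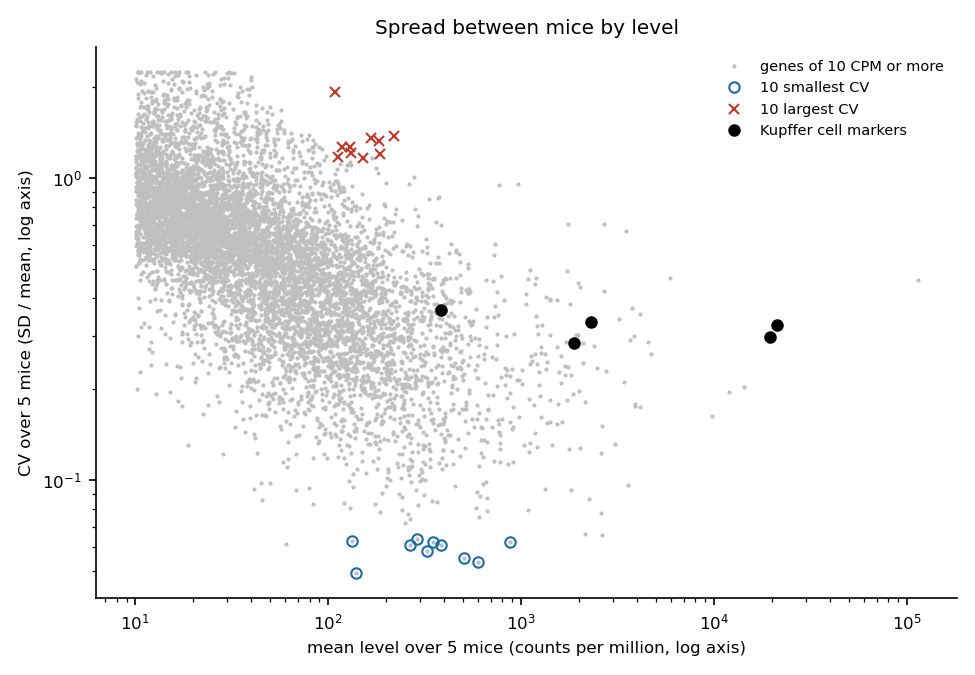
CV over the 5 oil-treated mice against mean CPM (both log axes) for the 7560 genes whose mean reached 10 CPM; grey points are genes, dark points are the 5 Kupffer cell markers, open circles the 10 genes with the smallest and crosses the 10 with the largest CV among genes of 100 CPM or more. The markers lie at a CV of 0.283 to 0.365, and the median was 0.304 for genes of 100 CPM or more. At 300 to 1000, 1000 to 3000 and above 3000 CPM the median CV was 0.25, 0.236 and 0.287. Each marker was above the median of its own level.

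The steadiest abundant genes came from mixed functions. Xiap, an inhibitor of caspases, had the smallest CV, 0.0491, at 145, 146, 130.0, 134 and 138 CPM, and did not pass the test of spread (chi-square, Benjamini-Hochberg adjusted p = 0.826). After it came Msr1, Rpl4, a ribosomal protein gene (503 ± 27.8 CPM), and Tmbim6, which encodes an inhibitor of cell death in the endoplasmic reticulum (326 ± 19.0 CPM). Erp29 (384 ± 23.4 CPM), Zfp106 (265 ± 16.2 CPM), Atp2b1, a calcium pump (875 ± 54.5 CPM), Ppig (349.6 ± 21.8 CPM), Bfar (133 ± 8.36 CPM) and Ms4a6c (290.2 ± 18.6 CPM) completed the 10. Their CV ran from 0.0491 to 0.064 by library totals. With TMM scaling 2 of the 10 were still among the 10 smallest and their CV ran from 0.0331 to 0.126. With DESeq2 size factors 0 of the 10 were, and their CV ran from 0.076 to 0.171. Without mouse 2 it was 0 of the 10, with a CV of 0.0469 to 0.0656. The rank of a single gene at this end therefore depends on the scaling and on mouse 2. A CV under 0.10 was reached by 48 genes of 100 CPM or more, and 38 of the 1748 did not pass the test.

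The most variable abundant genes were high in 1 library. All 22 genes of 100 CPM or more with a CV of 1 or more were highest in mouse 2, and 0 had such a CV without it. Sec14l2, a lipid-binding protein gene, had 9.73, 481, 19.6, 11.6 and 19.2 CPM. Ces1c, a carboxylesterase that liver secretes, had 119.7, 756, 103, 25.1 and 96.7 CPM, and Serpina1c, a protease inhibitor of hepatocytes, had 159, 574, 87.9, 42.5 and 64.5 CPM. Gpihbp1, the endothelial anchor of lipoprotein lipase, had 55.5, 614, 79.9, 64.6 and 102 CPM, and Retnlg, a neutrophil gene, had 63.3, 567, 97.3, 59.8 and 43.7 CPM. Marker sums of hepatocytes, endothelium and neutrophils were 2.77, 2.26 and 3.16 times the mean of the other 4 mice in mouse 2, in that order. Kupffer cell markers were at 0.466 times that mean. Mouse 2 was the highest in 520 and the lowest in 762 of the 1748 genes by library totals, and in 773 and 537 by DESeq2 size factors, and the part of other cells in this was not tested.

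**Figure D5:**
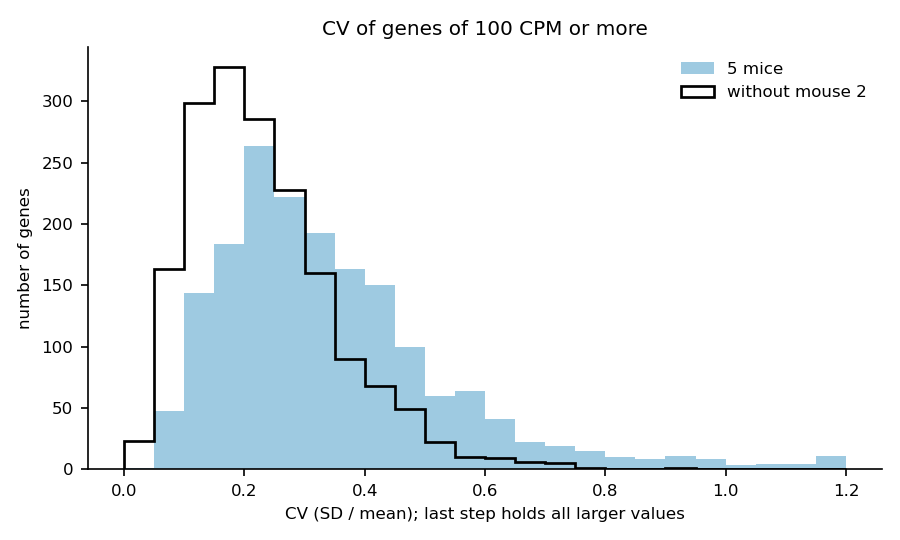
Number of genes of 100 CPM or more by CV, in steps of 0.05, over all 5 oil-treated mice (filled) and over 4 without mouse 2 (line); the last step holds all larger values. The median moves from 0.304 to 0.212 when mouse 2 is left out.

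Genes often used as references differed widely in level. Actb was lowest in mouse 2 under all 4 scalings and had a CV of 0.195, against 0.0741 without it. B2m had a CV of 0.128 and Rplp0, a ribosomal protein gene at 288, 359.7, 282, 298 and 381 CPM, of 0.141. Sdha, a subunit of succinate dehydrogenase, had 122, 114, 160.5, 133 and 153 CPM and Hprt, a purine salvage enzyme, 41.8, 106, 60.3, 63.7 and 79.1 CPM. Gapdh, by contrast, had 0.871 CPM on average, with counts in 1 of 5 mice, and Ppia, a cyclophilin, 1.39 CPM. Eno1, another glycolytic gene, had 0 counts in all 5 mice, although Hk2 and Pkm of the same pathway had 390.1 ± 42.6 and 161 ± 30.7 CPM. Sequence shared with other genes was counted for these. Of the 50-base windows in the last 300 bases of Gapdh transcripts (GENCODE M21), 50.3% also occurred in transcripts of other genes, 49.4% for Ppia and 50.3% for Eno1. The ferritin light chain gene Ftl1 (769.8 ± 111 CPM) had 79.2% and Eef1a1 (541 ± 162 CPM) 54.1%. Among 7517 genes of 10 CPM or more, 1.41% had over 50% of windows shared and 76.1% had none. Reads that fit several places were tallied apart in the table, at 8.18 to 12.1% of all reads. Tbp was also near 0, at 2.08 CPM, with 0% of windows shared, so a low level went with shared sequence in some of these genes and not in others.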

How the data were processed

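The authors deposited a table of whole-number read counts for each gene, with 1 column for each of 15 mice. Only the 5 columns of the oil-treated wild-type mice were used, plus the sex-linked rows of the other 10. The submitters' processing notes name Trimmomatic, STAR 2.5.1a, Partek 6.6 and the build mm10. The annotation and strand setting were not given in the sources used here. Where genes overlap on opposite strands, their reads may not be told apart. The 4 tally rows (unmapped, multimapping, no feature, ambiguous) were left out. Unmapped reads made up 47.4 to 62.4% of all reads, those outside of genes 12.4 to 18.5%, and those counted to genes 15.2 to 22.8%. Of the gene rows, 27 carry a date in place of a symbol and were kept in the totals. Gene types and synonyms came from RefSeq, which matched 99.44% of 24411 names. Gene positions and transcripts came from GENCODE M21, and upstream sequences from RefSeq's GRCm38.p6.

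The counts were divided by the library total of gene rows to give CPM, and the mean, SD and CV were taken over the 5 mice. There is no contrast between groups, so no test of differential expression was run. Spread between mice was tested by chi-square against 1 common share (4 degrees of freedom). In simulated counts for the same 8209 genes, the test called 41% of 100 genes given a CV of 0.25, 73% of 100 given a CV of 0.5, and 10 of 8009 given none. Nothing in the labels mentions molecular identifiers, so the test and the limits on 0 counts cover counting error only. The labels give each mouse its own number, and SDs hold both biological and technical spread. Genes were named by rule: the 30 highest by mean CPM, the 10 with the smallest and the 10 with the largest CV, the markers, Trem1 and Tyrobp, and the leading, steadiest and most variable members of the gene lists. Some further list members were named for their role after their values were seen, and a few genes that the rule names are not reported here. The gene lists were chosen with earlier results of these data known. Scaling alternatives were TMM in edgeR 4.0.16, DESeq2 1.42.0 size factors, totals without hepatocyte markers and, chosen after seeing the data, totals without Rn45s. Other alternatives were the median of mice, another count minimum and leaving out each mouse in turn. R 4.3.3, Python 3.11.15, numpy 2.4.6, pandas 2.3.3, scipy 1.17.1 and matplotlib 3.10.9 were used.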

Additional observations from a re-analysis of the deposited data

Results flagged for a closer look

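In 33 of 194 single levels and list sums, the highest or lowest of the 5 mice lay far from the rest. The gap to the nearest mouse, as a share of the whole range, was above Dixon's limit of 0.71, a limit that chance passes in about 1 of 20 groups. These measures share libraries and members, and some genes were named for their large CV, so the count cannot be read against that chance. Mouse 2 was the outlying library in 27 of them, 17 times as the highest and 10 times as the lowest by library totals.

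Among cell type markers, mouse 2 was the outlying high library for the summed level of sinusoidal endothelial markers (gap ratio 0.725), stellate cell markers (0.71004), B and plasma cell markers (0.714) and erythroid and platelet genes (0.814). Glycolysis genes did the same (0.720). Sums in which mouse 2 was the outlying low library were those of lineage transcription factors (0.770), lysosomal genes (0.746), immediate-early genes (0.858) and heat shock genes (0.744), the last of which changed place with the scaling. The sum of sex-linked genes was also low there (0.796), and Xist made up all of it (0.796).

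Single genes in which mouse 2 was far above the rest were the hepatocyte-expressed Sec14l2 (gap ratio 0.979), Ces1c (0.871), Serpina1c (0.781) and C3 (0.753), the endothelial Gpihbp1 (0.917) and Stab2 (0.724), the neutrophil and monocyte genes Retnlg (0.898) and Ly6c2 (0.948), the erythroid Alas2 (0.890), and Mki67 (0.778), Ctsl (0.714) and Trem1 (0.717). Csf1r (0.848), Slc11a1 (0.878), Klf4 (0.810) and Fth1 (0.779) were far below the rest in mouse 2.

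Other mice stood apart in 6 measures. Mouse 5 was high in the sum of antioxidant genes and metallothioneins, at 8869 CPM (gap ratio 0.8995), and in the sum of histone genes, at 1212 CPM (0.784). Mouse 1 was high in the chemokine gene Ccl4 at 706 CPM (0.830) and the cytokine gene Tnf at 176 CPM (0.794). The remaining cases were genes with few counts: Ppia at 5.84 CPM in mouse 1 (0.808) and Gapdh at 4.36 CPM in mouse 3 (1.000).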

How the results depend on the processing

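Scaling moved mean levels little and single mice moved some of them. Under TMM scaling and DESeq2 size factors, the means of 140 named genes were 0.966 to 1.11 and 0.948 to 1.19 times those by library totals. Without mouse 2, 9 gene means moved by over 1.5 times, all of them lower: Sec14l2 (15.0 CPM), Alas2 (26.1), Ces1c (86.2), Retnlg (66.0), Ly6c2 (6.04), Gpihbp1 (75.5), Serpina1c (88.4), C3 (454) and Mki67 (26.2). So did the sums of stellate (114 CPM) and B cell markers (41.7). Without mouse 1, Ccl4 averaged 152 and Tnf 32.1 CPM. With Rn45s left out of the totals, a choice made after seeing the data, 23 of the named genes moved by more than 1 SD, as did the sums of MHC class I presentation (8478 CPM), TREM receptors and DAP12 signalling (2024), heat shock (7388), translation factors (7228), glycolysis (1101), antioxidant genes (8491), cytosolic ribosomal proteins (18733), oxidative phosphorylation (12132), proteasome (6426), histones (1157) and unnamed gene models (15239.8). All 11 were higher, as a smaller total requires. The 10, 100 and 1000 highest genes then held 11.6, 30.4 and 64.8% of counts, against 21.3, 38.4 and 68.9%.

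Leaving out each mouse in turn, the genes of 100 CPM or more with a CV under 0.25 numbered 563 to 1099, their median CV was 0.212 to 0.326, edgeR's common biological CV was 0.493 to 0.845, and 7020 to 7852 genes passed the test of spread. The low biological CV and the high count of genes under 0.25 were both without mouse 2, where the CV of 72 of 140 named genes moved past 1.5-fold. TMM scaling did so for 17 and DESeq2 size factors for 34. With no count minimum, 12288 of 14015 genes passed the test of spread (87.7%). No paired analysis was possible because only 1 group was described, with no contrast to pair. Depth limits low genes: below about 3 counts in a library a gene cannot be told from 0, and 5 mice in 1 group give a broad error on any CV.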

Other observations

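Some gene classes stood outside the comparisons above. Gene models without a formal name, 3357 of the 24411 genes, had the steadiest sum of the 44 gene lists by library totals, at 13949, 14363, 12929.7, 12890.5 and 13073 CPM, a CV of 0.05. Of them, 28 had a mean of 100 CPM or more, against 7.16% of the table, led by 2900060B14Rik at 2485, 1692, 1367, 1139.5 and 957 CPM. This one gene was not steady, and was highest in mouse 1 and lowest in mouse 5.

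Cx3cr1, the fractalkine receptor found on monocytes and on some liver macrophages, had 76.9, 168, 53.0, 20.3 and 92.6 CPM and was highest in mouse 2. The S100 genes varied between mice, with a CV of 0.545 for the sum. S100a6 had 119, 73.9, 103, 83.0 and 109.7 CPM, and S100a9, which neutrophils express strongly, had 181, 331, 93.7, 43.4 and 308 CPM. Of 84 histone genes, 44 had 0 counts, as did 10396 of the table's 24411 genes. Whether 3' tag libraries can count the messages of all histone genes was not tested, so the 0 counts do not show absence. H3f3b, which encodes a histone variant made outside of DNA replication, led with 508 ± 114 CPM.

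Small nucleolar RNAs held 0.177 ± 0.0655% of counts. Across the 5 mice, 66 genes were among the 100 highest of every one.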
